A study of Mus musculus with 6 samples.

Results

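The metabotropic glutamate receptor transcripts of neurons of the medial mammillary nucleus were examined in 6 RNA-seq libraries from male mice. The set comprised 6 genes, Grm2, Grm3, Grm4, Grm5, Grm7 and Grm8, taken by gene name from a deposited table of 55414 mouse genes. The members were chosen with earlier results of these data known. The libraries fell into 2 groups by genotype label, 3 from PV-positive neurons (replicates 6, 7 and 8) and 3 from Drd2-positive neurons (replicates 1, 2 and 3), and values of single libraries are given in this order. PV stands for parvalbumin, a calcium-binding protein, and Drd2 for the D2 dopamine receptor. Slices were digested with papain and fluorescent cells were drawn into glass electrodes, so a library holds RNA of aspirated cells and whatever RNA came with them. The sources used here do not give the reporter lines, the age of the mice or the number of cells or mice behind a library.

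Metabotropic glutamate receptors are G-protein-coupled receptors that bind glutamate through a large extracellular domain and act as dimers. Group I receptors, the product of Grm5 among them, couple to Gq and phospholipase C and are mostly postsynaptic. Group II receptors (Grm2 and Grm3) and group III receptors (Grm4, Grm6, Grm7 and Grm8) couple to Gi/o, lower cyclic AMP and often sit on axon terminals, where they reduce transmitter release. The medial mammillary nucleus is a hypothalamic relay of the memory circuit whose principal neurons are glutamatergic and project to the anterior thalamus. Transcripts measured in cell bodies do not show where the receptor protein is placed.

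Values of the label genes did not overlap between the groups. Pvalb was at 349 to 563 FPKM (fragments per kilobase of exon, scaled to 1e6 fragments of the library) in PV libraries, against 10.4 to 99.5 FPKM in Drd2 libraries. Drd2 was at 0 to 0.0132 FPKM in PV libraries and at 7.74 to 55.0 FPKM in Drd2 libraries. In the test used below, their log2 folds of 3.93 for Pvalb and -4.79 for Drd2 each just missed the threshold of 0.05 (limma adjusted p = 0.0501 for both), so a gene that does not pass here may still differ. Slc17a6, the vesicular glutamate transporter of these neurons, was at 114 to 144 FPKM in PV and 108 to 144 FPKM in Drd2, and Foxb1, a mammillary transcription factor, was at 4.19 to 24.0 FPKM in PV and 26.4 to 76.4 FPKM in Drd2. The FPKM denominators were 23.8 to 33.7, in units of 1e6 fragments. PV replicate 7 had the fewest genes at 1 FPKM or more, 8610 against 10293 to 12398 in the other 5 libraries, and the largest mitochondrial share of the FPKM total, 31.3%, against 9.62% and 23.0% in the other PV libraries and 3.74% to 5.20% in Drd2. Where a library holds several cells, fewer cells carrying a transcript and less of it per cell cannot be told apart.

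All receptor values were whole reads: FPKM times exon length and the denominator fell within 0.00428 read of a whole number for each of them in every library. The 6 receptors together held 5922 to 22425 reads in the PV libraries and 15619 to 23309 reads in the Drd2 libraries. Counting error is therefore small for the abundant receptors, and the spread between libraries of a group is the main error. The reads carry no molecular identifiers and may be PCR copies of one another, and intervals on reads cover counting error only.

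Grm2 and Grm7 were the most abundant members in both neuron classes, Grm4 was intermediate, and Grm5, Grm8 and Grm3 were scarce. FPKM is per length, here the full annotated exon length, so levels of different genes can be set side by side with a reservation. Exons not in use or uneven read coverage could change a gene's value, and neither was tested. The same holds for the shares below. Over the 6 libraries the mean levels were 57.5 ± 30.3 FPKM for Grm2, 36.8 ± 21.8 for Grm7, 9.85 ± 4.65 for Grm4, 2.23 ± 1.48 for Grm5, 1.88 ± 1.63 for Grm8 and 0.738 ± 1.03 for Grm3 (SD, n = 6). Grm6, the receptor of retinal ON bipolar cells and no member of the set, was listed at 0 in all 6 libraries. Of neighbours in this order, Grm7 exceeded Grm4 in 6 of 6 libraries. Grm2 exceeded Grm7, Grm4 exceeded Grm5 and Grm8 exceeded Grm3 in 5 of 6 each. Grm5 exceeded Grm8 in 3 of 6, so these neighbours had no fixed order. Apart from Grm7 and Grm4, neighbours in the order of means were not separated in every library.

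**Figure D1:**
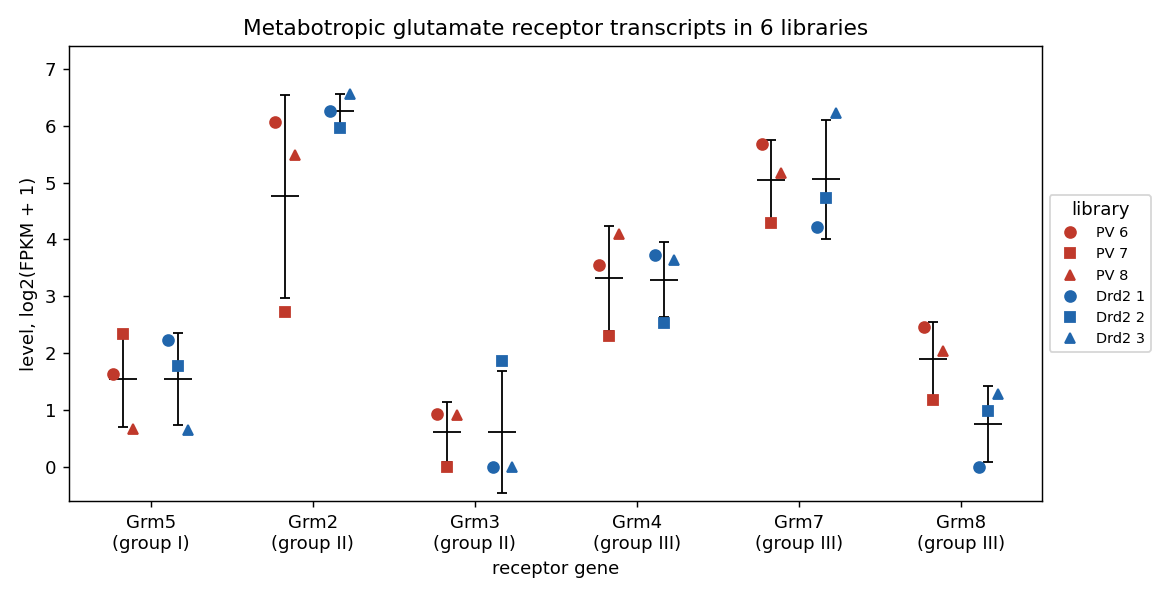
Level of each receptor gene as log2(FPKM + 1) in the 3 PV libraries (red, left of each pair) and the 3 Drd2 libraries (blue), with group mean and SD as bars. Grm2 and Grm7 are highest in both classes, and PV replicate 7 holds far less Grm2 (5.60 FPKM) than any other library.

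The comparison the design implies is PV against Drd2. Values were compared as log2(FPKM + 1) with limma across 11478 genes that reached 1 FPKM in at least 3 libraries, so folds of scarce genes are understated. Of these genes 30 passed an adjusted p of 0.05 (0.261%), 5 higher and 25 lower in PV. The 30 calls became 2, 3 and 1 with Drd2 replicate 1, 2 or 3 left out in turn, all of them higher in PV, so the excess of lower calls was lost without any one Drd2 library. Without PV replicate 6 there were 56, 4 higher and 52 lower. With quantile normalization of all 6 libraries 68 passed, 22 higher and 46 lower in PV. Of the 6 receptors, 5 were tested, Grm3 did not reach the filter, and none passed in limma, either at the adjusted threshold or at an unadjusted p of 0.05, which 12.8% of all tested genes did. Limma voom on the recovered reads, where 0.192% of genes passed, also called 0 of the 5. Among the alternatives, an unadjusted p under 0.05 was reached by Grm2 with voom (0.0446) and in limma without PV replicate 6 (0.0248), and by Grm8 in limma with quantile normalization (0.0172). None of the 5 tested receptors had groups that did not overlap, against 19.0% of all tested genes. All tested genes together had a median log2 fold of -0.28, which quantile normalization moved to 0.05, median-of-ratios scaling to -0.12 and TPM scaling to -0.50. Folds of the receptors are therefore also given relative to it.

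**Figure D2:**
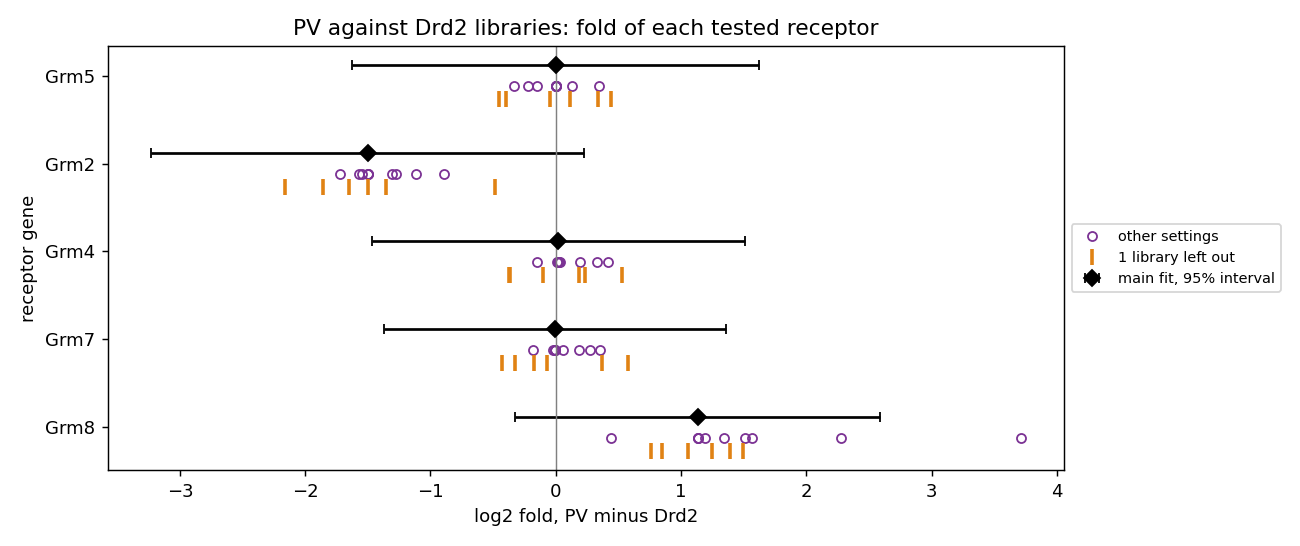
Log2 fold, PV minus Drd2, of each tested receptor: the diamond and bar are the limma estimate and its 95% interval, circles are other processing settings and ticks leave out 1 library. Every interval spans 0, and Grm2 stays below 0 and Grm8 above 0 in all settings drawn.

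Among group I receptors, Grm5 (ENSMUSG00000049583, mm10 chromosome 7, 87584168 to 88134907, plus strand) encodes a receptor of postsynaptic membranes that is also known from astrocytes. Grm5 measured 2.11, 4.05 and 0.582 FPKM in the PV libraries, against 3.67, 2.41 and 0.561 FPKM in the Drd2 libraries. Each group thus held libraries across nearly the same range, with 1 library under 1 FPKM in each. The group means were 2.25 ± 1.74 FPKM in PV neurons and 2.21 ± 1.57 in Drd2 neurons (SD, n = 3 each). The log2 fold was 0.00 with a 95% interval from -1.62 to 1.62 (limma adjusted p = 1.00). Its sign changed with the setting: it was -0.15 after rescaling to TPM and -0.23 with voom. The 169 reads of PV replicate 8 and the 137 reads of Drd2 replicate 3 were the fewest, and 1150 and 1270 reads in PV replicate 7 and Drd2 replicate 1 the most.

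Among group II receptors, Grm2 (ENSMUSG00000023192, chromosome 9, 106643095 to 106656082, minus strand) encodes a presynaptic receptor of glutamatergic neurons. Grm2 measured 66.1, 5.60 and 43.5 FPKM in the PV libraries, against 75.7, 61.1 and 93.2 FPKM in the Drd2 libraries. The Drd2 libraries lay close together, the PV libraries did not, and PV replicate 6 lay inside the Drd2 range. PV replicate 7 held 759 reads of Grm2, so its low value is not one of few reads. The group means were 38.4 ± 30.6 FPKM in PV neurons and 76.6 ± 16.1 in Drd2 neurons (SD, n = 3 each). The log2 fold was -1.50 ± 0.77 (SE), with a 95% interval from -3.23 to 0.23, and did not pass (limma adjusted p = 0.455). Relative to the median of all genes it was -1.22, and from -1.22 to -1.16 under the other scalings. The size rested on PV replicate 7: without it the log2 fold was -0.48 (limma adjusted p = 0.637), and without PV replicate 6 it was -2.16 (limma adjusted p = 0.212). PV replicate 7 is also the library with the fewest detected genes and the largest mitochondrial share, and the part of either in its Grm2 value was not tested. Across genes at 1 FPKM or more in the same library, Grm2 lay above 40.8% of genes in PV replicate 7, above 94.2% and 87.4% in PV replicates 6 and 8, and above 91.8% to 94.2% in the Drd2 libraries.

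Grm3 (ENSMUSG00000003974, chromosome 5, 9485541 to 9725170, minus strand), the other group II gene, is widely expressed in glia as well as neurons. Grm3 was at 0.913 and 0.879 FPKM in PV replicates 6 and 8, at 2.63 FPKM in Drd2 replicate 2, and listed at 0 in PV replicate 7 and Drd2 replicates 1 and 3. It reached 1 FPKM in 1 of 6 libraries, with 241 reads there and 83 and 76 reads in the PV libraries that held it. At these depths 3 reads correspond to 0.0355 FPKM in PV replicate 7, and to 0.0292 and 0.0413 FPKM in Drd2 replicates 1 and 3. The gene was thus present in some libraries of each class, far above what 3 reads would give, and not detected in the others. It failed the filter of the main test. Without a filter its log2 fold was -0.0051, with a 95% interval from -1.62 to 1.61 (limma adjusted p = 0.998).

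Markers of glia and blood varied between libraries. The 14 astrocyte markers summed to 607 to 782 FPKM in PV and 182 to 677 FPKM in Drd2, and all 14 were above 0 in some library. Of these sums, 484.8 to 512 FPKM in PV and 137 to 485.6 FPKM in Drd2 came from Aldoc alone. In Drd2 replicate 1, Gfap, Aqp4 and Sox9 were at 0, but every other marker of the list was above 0. Among those, S100b was at 15.3, Mlc1 at 10.0 and Gjb6 at 6.15 FPKM. Of the 14, 6 were highest in Drd2 replicate 2, the library with the most Grm3, 5 in PV replicate 6 and 1 each in PV replicate 7, PV replicate 8 and Drd2 replicate 3. Their sum in Drd2 replicate 2 was 452 FPKM, of which Aldoc made up 311 FPKM, and lay below that of every PV library. By contrast, the median log2(FPKM + 1) of the 14 markers was highest in Drd2 replicate 2, at 3.23. This median was 2.88, 2.33 and 1.50 in PV and 1.44 and 2.12 in Drd2 replicates 1 and 3. The 12 oligodendrocyte markers summed to 69.8 to 337 FPKM in PV and 74.2 to 1483 FPKM in Drd2, with the maximum again in Drd2 replicate 2. The 7 markers of oligodendrocyte precursors summed to 10.8 to 24.8 FPKM in PV and 1.67 to 4.40 FPKM in Drd2. Single genes carried these sums: Lhfpl3 made up 10.6 FPKM in PV replicate 7 and all 1.67 FPKM in Drd2 replicate 1, C1ql1 14.2 FPKM in PV replicate 6 and Neu4 16.7 FPKM in PV replicate 8. The defining genes Pdgfra and Cspg4 stayed at or below 1.13 and 0.0450 FPKM. The 5 blood cell markers, haemoglobin genes and the haem synthesis gene Alas2, summed to 3002, 3204 and 743 FPKM in PV and to 0.336, 12.1 and 0 FPKM in Drd2. All 3 tested ones, Hba-a1, Hba-a2 and Hbb-bs, passed (limma, log2 folds of 9.09, 7.72 and 8.28) and made up 3 of the 5 genes called higher in PV, with the reservation that reads of near-identical globin copies may be split between them. Limma voom on the recovered reads called 0 of these 3. The part of glial or blood cell RNA in the receptor values was not tested.

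Among group III receptors, Grm7 (ENSMUSG00000056755, chromosome 6, 110645581 to 111567230, plus strand) encodes the low-affinity autoreceptor of the presynaptic active zone. Grm7 measured 50.2, 18.6 and 35.1 FPKM in the PV libraries, against 17.6, 25.6 and 73.7 FPKM in the Drd2 libraries. The PV values lay wholly inside the range of the Drd2 values, which Drd2 replicate 3 extended upward. The group means were 34.6 ± 15.8 FPKM in PV neurons and 39.0 ± 30.4 in Drd2 neurons (SD, n = 3 each), and the log2 fold was -0.01 with a 95% interval from -1.37 to 1.35 (limma adjusted p = 0.997). Without Drd2 replicate 3 the log2 fold was 0.57 (limma adjusted p = 0.780), and its sign also changed with median-of-ratios scaling, to 0.19. Drd2 replicate 3 held the least Drd2 and the most Pvalb of its group. It also had the largest sum of 12 microglia markers, 4068 FPKM, against 502 to 1797 FPKM in PV and 23.9 and 118 FPKM in the other Drd2 libraries. The part of these differences in its Grm7 value was not tested.

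Grm4 (ENSMUSG00000063239, chromosome 17, 27422387 to 27521403, minus strand), a presynaptic receptor best known from cerebellar granule cells, was intermediate. Grm4 measured 10.7, 3.90 and 16.1 FPKM in the PV libraries, against 12.2, 4.79 and 11.4 FPKM in the Drd2 libraries. The groups overlapped almost completely, each with 1 low library, PV replicate 7 and Drd2 replicate 2. The group means were 10.2 ± 6.10 FPKM in PV neurons and 9.45 ± 4.06 in Drd2 neurons (SD, n = 3 each). The log2 fold was 0.02 with a 95% interval from -1.47 to 1.51 (limma adjusted p = 0.994), and -0.15 after rescaling to TPM.

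Grm8 (ENSMUSG00000024211, chromosome 6, 27275119 to 28135178, minus strand), a high-affinity presynaptic receptor, was scarce and uneven. Grm8 measured 4.48, 1.26 and 3.12 FPKM in the PV libraries, against 0.00599, 0.983 and 1.43 FPKM in the Drd2 libraries. PV replicate 7 lay just under Drd2 replicate 3, and the groups otherwise separated. In Drd2 replicate 1 the value came from 2 reads, for which an exact Poisson interval of 95% runs from 0.242 to 7.22 reads, or 0.000725 to 0.0216 FPKM, while the other Drd2 libraries held 292 and 337 reads and the PV libraries 1321, 344 and 877. The group means were 2.95 ± 1.62 FPKM in PV neurons and 0.806 ± 0.728 in Drd2 neurons (SD, n = 3 each). The log2 fold was 1.13 ± 0.65 (SE), with a 95% interval from -0.33 to 2.59, and did not pass (limma adjusted p = 0.508). Relative to the median of all genes the log2 fold was 1.41, and from 1.32 to 2.00 under the other scalings. Its size depended on how low values were handled: with a pseudocount of 0.1 FPKM it was 2.28, with 5 FPKM 0.44, and with voom on the recovered reads 3.71 (limma adjusted p = 0.446). With quantile normalization it was 1.56, with a 95% interval from 0.34 to 2.79 (limma adjusted p = 0.280), while leaving out Drd2 replicate 1 gave 0.76 (limma adjusted p = 0.811).

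The make-up of the receptor sum was also compared, because a share within a library does not change when the whole library is rescaled. The shares are given without a test, since they are scores over chosen genes. The 6 receptors summed to 135, 33.4 and 99.3 FPKM in PV and to 109, 97.4 and 180 FPKM in Drd2, so the sums overlapped. Group II made up 49.8%, 16.8% and 44.8% of the sum in the PV libraries, and 69.4%, 65.4% and 51.7% in the Drd2 libraries. Group III made up 48.6%, 71.1% and 54.7% in PV and 27.3%, 32.2% and 48.0% in Drd2. Neither share overlapped between the groups, though PV replicate 6 and Drd2 replicate 3 lay within 2 percentage points of each other in both. The 2 shares together hold most of the sum and so mirror each other, which makes this 1 observation. Of all tested genes, 19.0% also had groups that did not overlap, and no such background was made for shares.

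Within group III, Grm8 made up 3.33%, 3.76% and 3.15% of the receptor sum in PV and 0.00549%, 1.01% and 0.792% in Drd2. These shares did not overlap, averaging 3.41% ± 0.316 in PV neurons and 0.602% ± 0.528 in Drd2 neurons (SD, n = 3 each). The Grm8 levels themselves did overlap, with 1.26 FPKM in PV replicate 7 and 1.43 FPKM in Drd2 replicate 3. PV replicate 7, low in Grm8 itself, had the highest share of all. Its share was taken over the smallest receptor sum, 33.4 FPKM, with Grm2 at 5.60 FPKM, so its place near the other PV shares depends on that low sum. Grm7 made up 37.3%, 55.6% and 35.3% in PV and 16.1%, 26.2% and 40.9% in Drd2, which overlapped, as did the shares of Grm4. The ratio of Grm2 to Grm7 was 1.32, 0.302 and 1.24 in PV and 4.30, 2.39 and 1.26 in Drd2, with PV replicate 6 above Drd2 replicate 3. Without PV replicate 7 the difference in the group II share was -14.9 percentage points, PV minus Drd2, against -25.0 with all libraries, and for the Grm8 share it was 2.63 against 2.81.

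**Figure D3:**
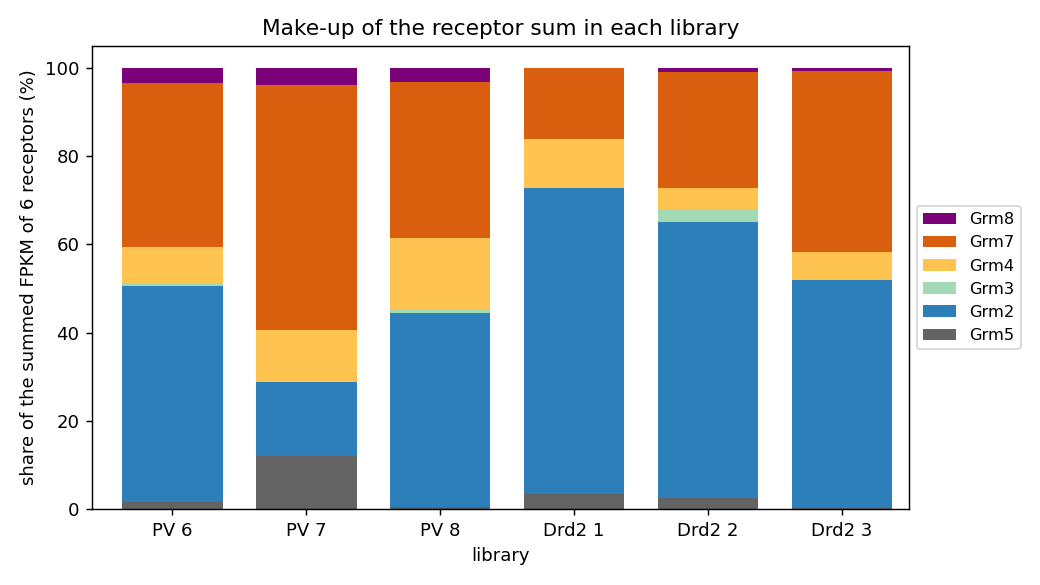
Share of each of the 6 receptors, in percent, in their summed FPKM, by library, PV on the left and Drd2 on the right. The blue Grm2 share is larger and the purple Grm8 share smaller in each Drd2 library than in each PV library.

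The 6 genes also differ in their loci, which bears on how reads could be assigned. Exon lengths from GENCODE M21 ran from 3049 bases (Grm3) to 10247 bases (Grm5), and gene spans from 12988 bases (Grm2) to 921650 bases (Grm7). Since the sources used here do not give the strand setting of the counting, reads of a gene and of an overlapping gene on the other strand cannot be told apart. Exons of the antisense gene Gm28111 cover 470 bases of Grm2 exons, and Gm28111 was listed at 0 in all 6 libraries. Exons of the antisense gene Gm20387 cover 130 bases of Grm7 exons, 2.21% of their length, and Gm20387 was at 6.08, 0 and 1.36 FPKM in PV and 4.12, 7.29 and 0.306 FPKM in Drd2. An exon of Grm8 holds the microRNA gene Mir592, which was at 0 throughout. Exons of Grm3, Grm4 and Grm5 overlapped no other annotated exon.

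Genes whose levels followed each tested receptor over the 6 libraries are named as a description. Pearson's r of log2(FPKM + 1) was taken against 6712 genes with a mean of at least 5 FPKM, and the 3 highest are given. With 6 points that share library depth and makeup, a high r is reached by many genes. For Grm2 they were Adam15 (r = 0.998), the calcium sensor Hpca (0.994) and Rprm (0.993), all lowest in PV replicate 7, and 259 genes reached an r of 0.95 with Grm2. For Grm4 they were Nrm (0.991), Pdrg1 (0.990) and the vitamin transporter Slc5a6 (0.989). For Grm5 they were Tapt1 (0.976), the ribosomal protein gene Rps27 (0.969) and Tmem208 (0.966). For Grm7 they were the immunoglobulin gene Ighm (0.982), the citrate synthase gene Cs (0.972) and the granin gene Chga (0.961), each highest in Drd2 replicate 3. For Grm8 they were the potassium channel gene Kcng2 (0.975), Ogdh (0.968), of the citric acid cycle, and Irf2bp1 (0.967). Between 6 and 19 genes reached 0.95 with Grm4, Grm5, Grm7 or Grm8. Among the receptors themselves r ran from -0.80 (Grm5 with Grm7) to 0.64 (Grm2 with Grm4).

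Partner genes of the receptors were examined in 5 lists with 81 genes in the table, of which 61 were tested. By limma 0 of 61 passed over all genes, 5 had an unadjusted p under 0.05 (8.20%, against 12.8% of all tested genes), 3 higher and 2 lower in PV, and voom called 0. Groups did not overlap for 12 of the 61 (19.7%, against 19.0% of all tested genes). The first share is below the background and the second close to it. The values of named genes below are therefore descriptions of genes that did not pass.

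**Figure D4:**
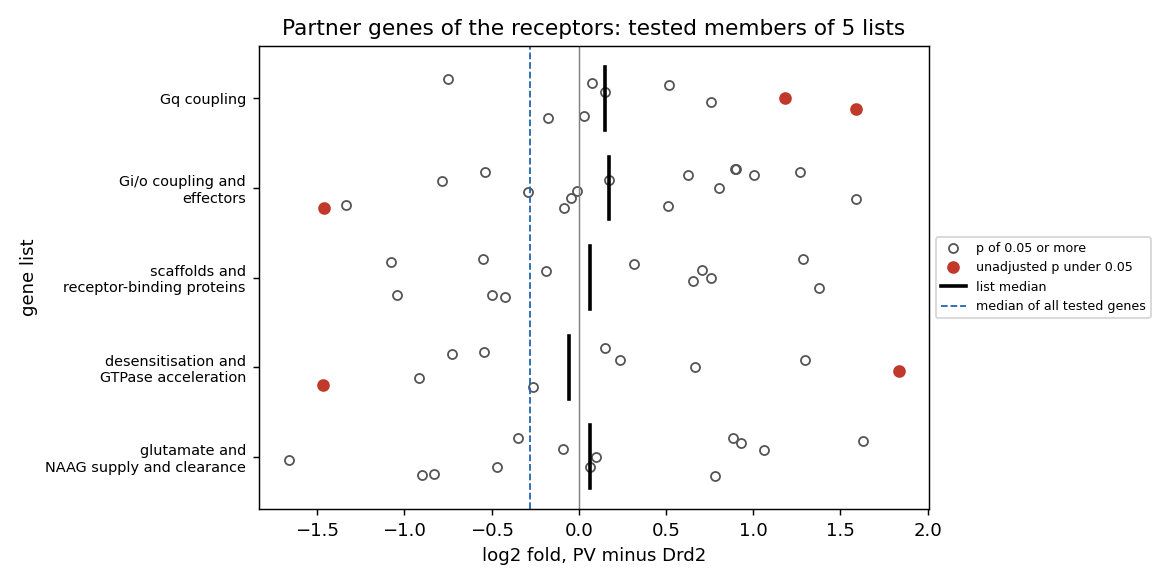
Log2 fold, PV minus Drd2, of each tested gene in 5 lists of receptor partners, with filled points for an unadjusted p under 0.05, bars for list medians and a dashed line for the median of all tested genes (-0.28). The list medians run from -0.06 to 0.17, and no gene passed over all genes.

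Of the Gq pathway, which group I receptors use, 9 of 15 genes were tested, with a median log2 fold of 0.15. Plcb4, a phospholipase C of this pathway, was at 32.9, 61.1 and 41.8 FPKM in PV and at 15.4, 10.8 and 16.2 FPKM in Drd2. The groups did not overlap, and the log2 fold of 1.59 ± 0.45 (SE) did not pass (limma adjusted p = 0.185). Dgkb, a diacylglycerol kinase, averaged 67.1 ± 13.1 FPKM in PV neurons and 32.4 ± 20.5 in Drd2 neurons (SD, n = 3 each; log2 fold 1.18, limma adjusted p = 0.356). Prkca, a protein kinase C gene, and Plcb1, another phospholipase C gene, had log2 folds of -0.75 and 0.76 (limma adjusted p = 0.671 and 0.725). The G-protein subunit gene Gnaq itself, picked after its values were seen, was at 14.2 ± 1.95 FPKM in PV neurons and 14.1 ± 6.45 in Drd2 neurons.

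Of the Gi/o proteins and effectors that group II and group III receptors use, 17 of 20 genes were tested, with a median log2 fold of 0.17. Adcy3, an adenylyl cyclase, was at 0.446, 0 and 0 FPKM in PV and 1.34, 2.78 and 2.38 FPKM in Drd2, with no overlap (log2 fold -1.46, limma adjusted p = 0.275). Another cyclase gene, Adcy9, had a log2 fold of 1.59, the GIRK potassium channel gene Kcnj3 of 1.27 and the G-protein gene Gnai2 of -1.34 (limma adjusted p = 0.408, 0.415 and 0.456). Kcnj3 was at 15.1, 28.2 and 13.2 FPKM in PV and 8.95, 9.81 and 3.43 FPKM in Drd2, again without overlap. Gnao1, picked after its values were seen, was at 34.8 ± 9.81 FPKM in PV neurons and 30.5 ± 6.16 in Drd2 neurons.

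Of scaffolds and receptor-binding proteins, 12 of 18 genes were tested, with a median log2 fold of 0.064 and none at an unadjusted p under 0.05. Homer1, which binds the tail of group I receptors, was at 3.89, 5.45 and 3.29 FPKM in PV and 1.85, 1.51 and 0.0736 FPKM in Drd2, with no overlap (log2 fold 1.38, limma adjusted p = 0.434). Siah1a, a ubiquitin ligase that binds the same receptors, averaged 8.82 ± 1.83 FPKM in PV neurons and 3.02 ± 0.664 in Drd2 neurons, and Dlgap1, a postsynaptic density protein, 4.22 ± 1.37 in PV neurons and 10.1 ± 3.45 in Drd2 neurons (SD, n = 3 each). Pick1, a scaffold that binds the tail of the Grm7 product, averaged 3.89 ± 3.34 FPKM in PV neurons and 7.42 ± 2.25 in Drd2 neurons (log2 fold -1.04, limma adjusted p = 0.599). Elfn1, whose protein recruits group III receptors across the synapse, was listed at 0 in all 6 libraries and was picked after its values were seen. Elfn2, also in this list, was at 2.73, 0 and 7.31 FPKM in PV and 2.39, 0.772 and 0.321 FPKM in Drd2. Its log2 fold was 0.66 (limma adjusted p = 0.781).

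Of kinases, arrestins and RGS proteins that end receptor signalling, 10 of 12 genes were tested, with a median log2 fold of -0.06. Rgs4, an accelerator of Gi/o and Gq shut-off, was at 78.2, 94.4 and 84.7 FPKM in PV and at 294, 265 and 174 FPKM in Drd2. The groups did not overlap, and the log2 fold of -1.47 ± 0.36 (SE) did not pass (limma adjusted p = 0.133). Grk5, a receptor kinase, was at 1.34, 4.66 and 3.24 FPKM in PV and at 0, 0 and 0.238 FPKM in Drd2 (log2 fold 1.83, limma adjusted p = 0.211). Rgs8 and Grk6 had log2 folds of 1.30 and -0.92 (limma adjusted p = 0.519 and 0.622).

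Of genes that supply or clear glutamate and the peptide N-acetylaspartylglutamate, 13 of 16 were tested, with a median log2 fold of 0.07 and none at an unadjusted p under 0.05. Glul, glutamine synthetase, and Slc1a2, a glutamate transporter, are both known chiefly from astrocytes. Glul averaged 129 ± 13.3 FPKM in PV neurons and 77.4 ± 27.6 in Drd2 neurons, and Slc1a2 17.3 ± 2.21 in PV neurons and 9.43 ± 7.86 in Drd2 neurons (SD, n = 3 each). The synthetase genes of the peptide had folds of opposite sign, 1.63 for Rimkla and -1.66 for Rimklb on the log2 scale (limma adjusted p = 0.449 and 0.400). Folh1, which encodes a peptidase that breaks the peptide down, was at 4.57 FPKM in Drd2 replicate 1 and listed at 0 in the other 5 libraries.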

How the data were processed

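FPKM values per gene and library were made by the authors and deposited as 1 table of 55414 mouse Ensembl genes. The submitters' processing notes name STAR as tool and mm10, hg38 and GRCh38 as builds. The sources used here do not give the gene quantifier or annotation release. Positions and exon lengths came from GENCODE M21 (mm10), which holds 94.0% of the identifiers.

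Values at most 20 reads high fell within 0.01 read of a whole number in 98.0% to 98.8% of cases (2% by chance), which gave denominators and reads. Genes with at least 1 FPKM in 3 of 6 libraries were compared as log2(FPKM + 1) with the 2-sided test of limma 3.58.1 under R 4.3.3, the variance following intensity and p adjusted by Benjamini-Hochberg over 11478 genes. The fit was tested on simulated data, with changes larger than the receptor folds of the main test, placed in abundant genes only. That test therefore does not show how well smaller folds, or folds of scarcer receptors, are found. Alternatives were other pseudocounts, filters, scalings, variance models, voom on recovered reads and leaving out each library. Named genes were the receptors, the label genes, up to 4 genes per list with the smallest p, and the 3 genes most similar to each tested receptor; other genes were picked after their values were seen or serve as markers. Members and lists were chosen with earlier results of these data known. Protein sequences were not used here, and some genes of the lists are not reported here.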

Additional observations from a re-analysis of the deposited data

How the results depend on the processing

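The number of genes past the threshold, 30 with the main settings, was 4 with a pseudocount of 0.1 FPKM, 68 with 5 FPKM, 69 with a mean of at least 1 FPKM, 68 with quantile normalization, 46 with no intensity trend, 105 with array weights and 0 in limma with no filter on low values among genes above 0 in any library (1509 at an unadjusted p under 0.05), and ran from 1 to 56 when 1 library was left out. No tested receptor passed in any of 16 alternatives, and no gene of the partner lists did in the same 16, of which 7 were added for the lists after seeing the data. Over 16 alternatives each, the log2 fold ran from -2.16 to -0.48 for Grm2 (adjusted p 0.212 to 0.681) and from 0.44 to 3.71 for Grm8 (0.280 to 0.811), with no change of sign. Signs that changed belonged to folds near 0, and the cause was not tested. For Grm4 the log2 fold was -0.15 after rescaling to TPM and ran from -0.37 to 0.53 with 1 library left out. For Grm5 it was -0.15 after rescaling to TPM, -0.33 with array weights and -0.23 with voom, and ran from -0.45 to 0.44. For Grm7 it was 0.19 with median-of-ratios scaling, 0.27 with quantile normalization, 0.35 with array weights and 0.058 with voom, and ran from -0.43 to 0.57. The log2 ratio of the mean group III sums, -0.04, was 0.15 with median-of-ratios scaling and ran from -0.34 to 0.65. No paired analysis was made, since the labels name no pairing and the groups share no replicate number. Whether libraries of the 2 groups came from the same mice is not given.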
